A study of Mus musculus with 9 samples.

Results

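Amino acid synthesis and transport genes were followed in mouse knee chondrocytes that had been kept on soft ECM, on stiff ECM or in the group labelled normal. The genes were 8 by name. Asns, Psat1, Phgdh, Shmt2 and Mthfd2 encode enzymes, and Slc7a11, Slc7a5 and Slc3a2 encode transporter subunits. The set was defined by function, with earlier results of these data known, so its counts are descriptions. Each gene was read from the probe with the highest mean log2 intensity over the 9 samples. Of the 8 genes 7 had a named probe, among 18295 genes measured in all, and the level of Phgdh was not analysed here.

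The cells were primary chondrocytes isolated with collagenase from the articular cartilage of 1-day-old Kunming mice and grown in high-glucose DMEM with serum, glutamine and antibiotics. RNA was collected at 24 h from 3 samples on a polyacrylamide gel of 500 Pa (soft ECM), 3 on a gel of 100 kPa (stiff ECM) and 3 labelled normal, with no substrate named in the sources. The labels give this time, and the study's legends give a later one. Gels in the study carried a coat of type I collagen in most experiments. The study asked how the stiffness of the substrate changes gene expression in these cells, and the normal samples add a reference outside both gels. Whether the 3 samples of a group were separate cultures or separate animals is not stated, so p-values measure only the spread between these samples, which may be technical.

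Cells take up most amino acids from the medium and make some of them. Asparagine synthetase makes asparagine from aspartate, and a short pathway leads from a glycolysis intermediate to serine, which mitochondrial enzymes then turn into glycine and one-carbon units for nucleotides. Transporters in the plasma membrane bring in leucine and other large neutral amino acids, or exchange cystine for glutamate. When amino acids run short, the kinase GCN2 (gene Eif2ak4) slows protein synthesis and raises translation of ATF4, a transcription factor that switches on many of these enzyme and transporter genes. ATF4 binds with C/EBP partners to a C/EBP-ATF response element. Cartilage cells need amino acids for their collagen-rich matrix, and mice without ATF4 have abnormal cartilage and bone growth.

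The probes of a microarray report relative amounts. An intensity here is the fluorescence of Cy5-labelled RNA on a probe, by the methods' account scaled by the median, and deposited on a linear scale. Group differences were taken for the same probe only. Brightness against olfactory receptor probes and sums of cell type markers set different probes side by side, as descriptions. The median intensity of a sample was 124 to 179 in the normal group, 137 to 150 on soft ECM and 166 to 175 on stiff ECM. Olfactory receptor genes, which chondrocytes are not known to use, had sample medians of 27.9 to 48.6, 37.7 to 42.2 and 53.5 to 57.4. Correlation of log2 intensities between samples was 0.9796 to 0.9878 within groups and 0.9673 to 0.9865 between groups. Of the chondrocyte markers, Col2a1 (type II collagen) was at 8719.6 to 11070.0 in the normal samples, and Matn1 was near background at 3.10 to 10.7 in all samples. Most markers of fibroblasts and skeletal muscle were also high, so the labelled cell type was not the only one with its markers present. In these lists Col1a1 (129 to 273) and Mylpf (25.7 to 52.6) were dim.

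Promoter sequences were read to show the letters that lie before these genes, because the 2 genes printed first have a match to the ATF4-type element and lay on opposite sides of the normal group on stiff ECM, while the third was the gene with the largest fall. Windows of the 250 bases before the annotated start came from RefSeq (GRCm38.p6), which gave a window for 7 of the 8 genes (all but Slc7a5, and a pair of windows for Psat1). The letters searched were TGATGNAA, the core of the C/EBP-ATF response element, and TGACNNNGC, the core of the antioxidant response element that NRF2 uses, on both strands. Capitals mark the matches, and each sequence runs 5′ to 3′ on the minus strand, which is the coding strand of these genes.
Asns promoter, chr6:7693210-7693459, minus strand: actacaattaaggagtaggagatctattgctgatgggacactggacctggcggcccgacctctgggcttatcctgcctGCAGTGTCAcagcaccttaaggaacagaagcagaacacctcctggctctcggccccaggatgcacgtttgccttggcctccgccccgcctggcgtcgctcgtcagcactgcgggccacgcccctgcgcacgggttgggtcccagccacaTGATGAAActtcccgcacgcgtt
Slc7a11 promoter, chr3:50443614-50443863, minus strand: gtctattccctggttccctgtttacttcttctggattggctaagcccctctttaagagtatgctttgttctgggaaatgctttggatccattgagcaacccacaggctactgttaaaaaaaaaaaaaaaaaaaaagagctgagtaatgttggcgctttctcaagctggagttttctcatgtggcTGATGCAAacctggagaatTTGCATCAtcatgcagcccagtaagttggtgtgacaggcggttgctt
Mthfd2 promoter, chr6:83317605-83317854, minus strand: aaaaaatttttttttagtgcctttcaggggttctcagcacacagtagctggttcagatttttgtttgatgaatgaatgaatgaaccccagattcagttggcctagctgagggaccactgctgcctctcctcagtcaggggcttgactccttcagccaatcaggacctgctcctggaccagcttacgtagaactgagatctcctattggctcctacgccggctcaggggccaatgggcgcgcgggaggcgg

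In Asns the C/EBP-ATF core was TGATGAAA, from -23 to -16 relative to the annotated start, and an antioxidant core on the opposite strand ran from -172 to -164. Slc7a11 held the C/EBP-ATF core in both orientations, as TGATGCAA from -66 to -59 and as its reverse complement TTGCATCA from -47 to -40. The Mthfd2 window held neither core, and neither did those of Psat1, Shmt2 and Slc3a2, while Phgdh held an antioxidant core from -53 to -45. Matches of the 2 motifs did not overlap in these genes. The C/EBP-ATF core was thus in 2 of 7 genes, and in 3.91% of all 27025 genes with a window. The antioxidant core was in 2 of 7 genes and in 11.5% of all genes. A match describes the letters in this window, and no match says only that these letters are not in it.

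The enzymes are described first. Asns, which encodes asparagine synthetase, had intensities of 25999.8, 25506 and 26996 in the normal samples, 24824, 23119 and 21420.1 on soft ECM and 19123, 18371 and 19662 on stiff ECM. The 3 groups stood in order without overlap, with normal highest and stiff ECM lowest. On the log2 scale stiff ECM was lower than normal by -0.46 (SE 0.08, limma adjusted p = 0.012). Stiff minus soft was -0.28 (SE 0.08, adjusted p = 0.104) and soft minus normal was -0.18 (SE 0.08, adjusted p = 0.259), so neither neighbouring pair in this order passed the test. The call for stiff minus normal was lost without stiff ECM replicate 2 (adjusted p = 0.059).

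Mthfd2 encodes the mitochondrial dehydrogenase and cyclohydrolase that handles one-carbon units carried by folate. Its intensities were 2786, 2689 and 2770.4 in the normal samples, 1749, 2039.6 and 1786 on soft ECM and 1758, 1767 and 1745 on stiff ECM. All 6 gel samples lay below all 3 normal samples, and the 2 gels overlapped. Mthfd2 fell by 0.57 on soft ECM (SE 0.09, limma adjusted p = 0.012) and by 0.65 on stiff ECM (SE 0.09, adjusted p = 0.005) against normal, on the log2 scale. These are levels 1.48 times and 1.56 times lower. The difference between gels was -0.08 with a 95% interval from -0.28 to 0.12.

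Psat1 encodes phosphoserine aminotransferase, a step of serine synthesis. It was at 12233, 11305 and 11651 in the normal samples, 12182, 9909 and 10011 on soft ECM and 12187, 12284 and 11817 on stiff ECM. Each pair of groups overlapped, and soft ECM replicate 1 stood above its own group and among the samples of the others. The largest of its log2 differences was 0.18 for stiff minus soft (95% interval -0.03 to 0.39, limma adjusted p = 0.288).

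Shmt2 encodes the mitochondrial serine hydroxymethyltransferase, which makes glycine from serine. It was at 5085, 4727 and 5181 in the normal samples, 4806, 4298 and 4113 on soft ECM and 4606, 5171 and 4139 on stiff ECM. All groups overlapped. Its log2 differences were -0.18 for soft minus normal (95% interval -0.42 to 0.05) and -0.11 for stiff minus normal (-0.34 to 0.12), neither past the test. A second, dim Shmt2 probe (137 to 230.1) gave -0.15 and -0.33 for the same contrasts, with limma adjusted p of 0.706 and 0.239. On that probe the stiff ECM samples lay below both other groups without overlap. Its stiff minus soft difference was -0.19 (adjusted p = 0.548), where the brighter probe gave 0.07.

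**Figure D1:**
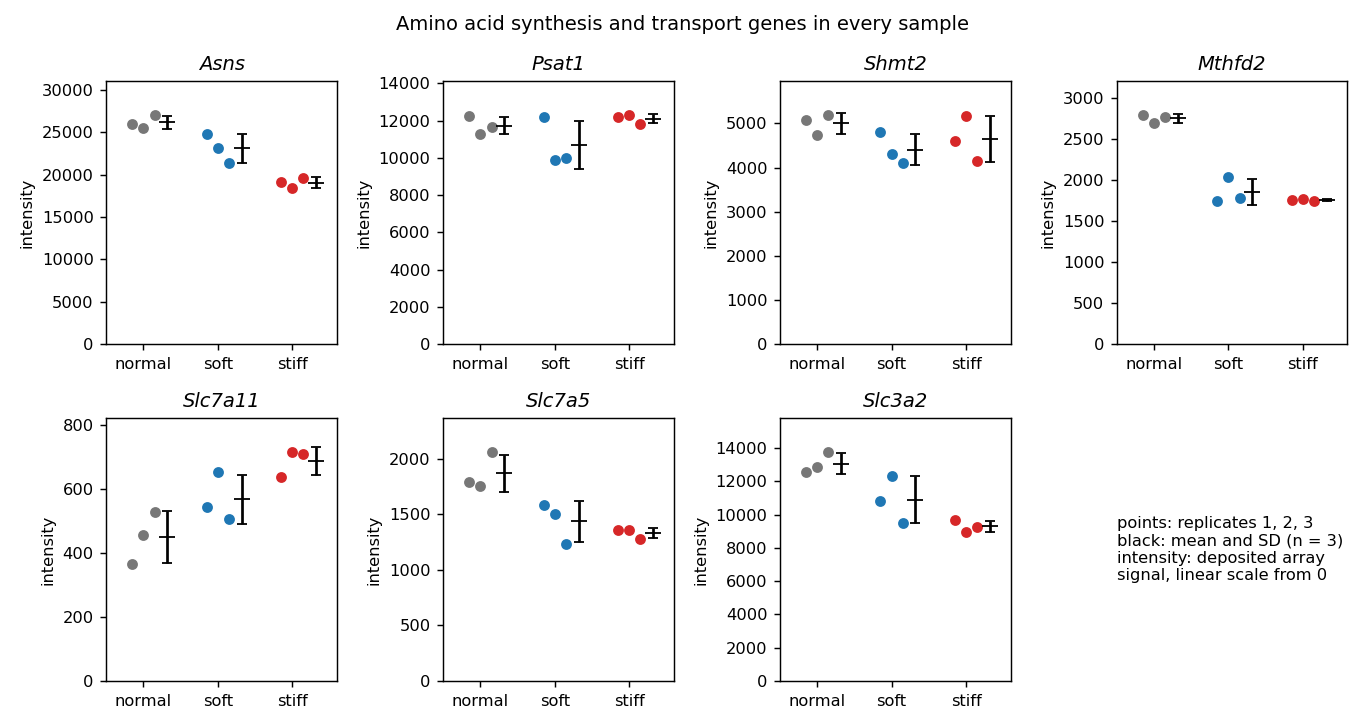
Intensity (linear scale from 0, each panel with its own axis) of the 7 measured genes in every sample. Points are the 3 replicates of the normal, soft ECM and stiff ECM groups, and the black marks give the mean and SD (n = 3). Mthfd2 lies at 1745 to 2039.6 in all gel samples and at 2689 to 2786 in the normal samples, and Slc7a11 lies at 637 to 716 on stiff ECM and at 367 to 529 in the normal samples.

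The transporter subunits divided by direction. Slc3a2 encodes the heavy chain (4F2hc, CD98) that carries several amino acid transporters to the plasma membrane. Its intensities were 12576, 12881 and 13763 in the normal samples, 10834, 12322 and 9511 on soft ECM and 9655, 8961 and 9259 on stiff ECM. Every gel sample lay below every normal sample, while soft ECM replicate 3 lay within the range of the stiff ECM. The log2 difference for stiff minus normal was -0.49 (SE 0.10, limma adjusted p = 0.018), a level 1.41 times lower. This call was lost without normal replicate 2 or stiff ECM replicate 2 or 3 (adjusted p = 0.053, 0.074 and 0.058). Soft minus normal was -0.27 (SE 0.10, adjusted p = 0.172). The second Slc3a2 probe was dim (151 to 225) and gave -0.39 for stiff minus normal, with no overlap of the groups and an adjusted p of 0.100.

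Slc7a5 encodes LAT1, the light chain that pairs with the Slc3a2 protein and carries leucine and other large neutral amino acids. Its intensities were 1788, 1758 and 2062 in the normal samples, 1584, 1500.2 and 1233 on soft ECM and 1358, 1359 and 1276 on stiff ECM. Both gels lay below normal without overlap and overlapped each other. Slc7a5 fell by 0.49 on stiff ECM (SE 0.12, limma adjusted p = 0.029), a level 1.40 times lower, and soft minus normal was -0.38 (SE 0.12, adjusted p = 0.098). The stiff ECM call was lost without normal replicate 2 or any 1 of the stiff ECM samples (adjusted p = 0.057 to 0.092).

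Slc7a11 encodes xCT, the light chain of the cystine and glutamate exchanger, which also pairs with the Slc3a2 protein and supplies cystine for glutathione. It ran the other way. Its intensities were 367, 457 and 529 in the normal samples, 545, 653 and 506 on soft ECM and 637, 716 and 710.3 on stiff ECM. All stiff ECM samples lay above all normal samples, and the soft ECM overlapped with both. Slc7a11 rose on stiff ECM, with a log2 difference of 0.62 (SE 0.15, limma adjusted p = 0.031), a level 1.54 times higher, and soft minus normal was 0.34 (SE 0.15, adjusted p = 0.246). The call was lost without normal replicate 1 or 2, or any 1 of the stiff ECM samples, with an adjusted p of 0.051 to 0.110. Without normal replicate 1, the lowest sample, the difference was 0.48.

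Between stiff and soft ECM, the comparison of the 2 gels, none of the 7 genes passed the limma test in either direction. Of all 24942 probes 1.35% were called higher and 0.417% lower in this comparison. At an unadjusted p under 0.05 limma gave 1 gene (Asns) of the 7, against 21.6% of all probes. The methods' t-test gave 1 unadjusted and 0 adjusted, against 27.5% of all probes unadjusted and 223 probes adjusted. Asns was also the gene whose gel samples did not overlap, being lower on stiff ECM, and 6.39% of all probes had this pattern. The median log2 difference of the 7 genes was -0.08, and it was 0.18 over all probes and 0.04 over the 10514 probes that, like all 7 genes, exceeded the 95th percentile of the olfactory receptor probes in brightness.

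Against normal more genes passed. On the soft ECM 1 of 7 fell (Mthfd2) and 0 rose, where 3.21% of all probes were called lower and 0.493% higher. On that gel 4 of the 7 genes (Asns, Mthfd2, Slc7a5 and Slc3a2) lay below normal without overlap, a pattern of 18.3% of all probes. On the stiff ECM 4 of 7 fell (the same 4 genes) and 1 rose (Slc7a11), where 5.14% of all probes were called lower and 4.8% higher. All 5 were also free of overlap, as were 14.6% of all probes in the lower direction and 19.3% in the higher. Among the brighter probes the called shares on stiff ECM were 9.87% lower and 3.97% higher. The median of the 7 genes was -0.18 on the soft and -0.46 on stiff ECM, that of all probes -0.09 and 0.09, and that of the brighter probes -0.14 and -0.11. Both comparisons used the same 3 normal samples.

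The count of 5 on stiff ECM depended on single samples. It was 2 without normal replicate 2, 3 without stiff ECM replicate 1, 1 without stiff ECM replicate 2 and 2 without stiff ECM replicate 3, while Mthfd2 kept its call in each of these fits (adjusted p at most 0.027). The call of Mthfd2 on soft ECM was lost without normal replicate 2 or soft ECM replicate 3 (adjusted p = 0.054 in both), and after each of 3 scalings of the arrays (0.052 to 0.086). The 5 directions on stiff ECM were the same under quantile, median and loess scaling. Those of Psat1 and Shmt2 were not.

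**Figure D2:**
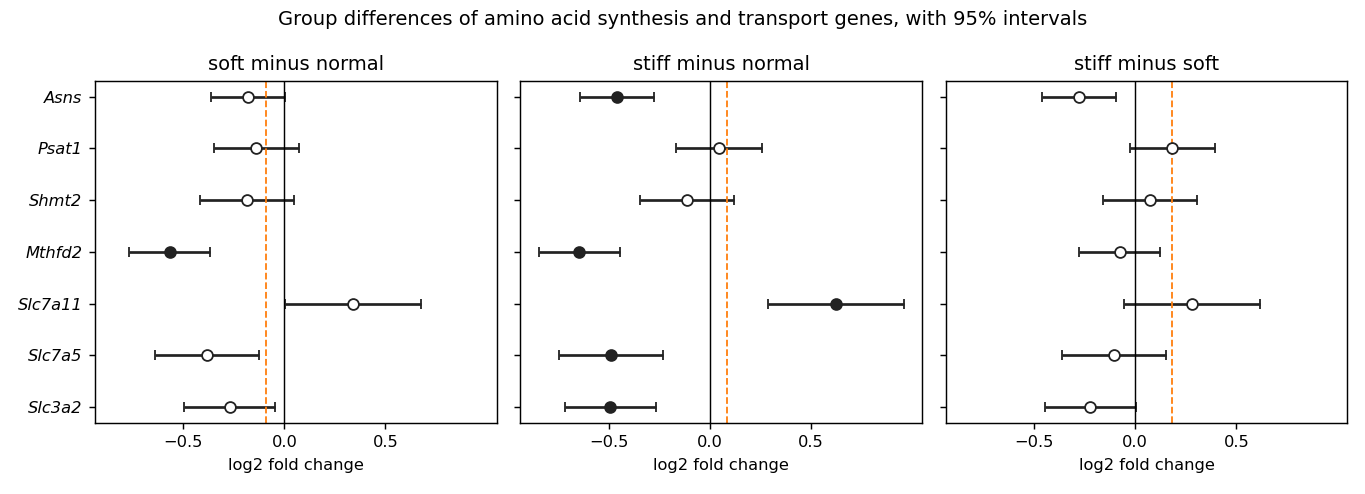
Log2 fold changes of the 7 genes in the 3 comparisons, with 95% intervals from limma. Filled points passed an adjusted p of 0.05, and the dashed line is the median of all tested probes (-0.09, 0.09 and 0.18 from left to right). For stiff minus normal 4 filled points lie below 0 and that of Slc7a11 lies above it, at 0.62. The open points are Shmt2 (-0.11) and Psat1 (0.04).

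The 7 genes varied among themselves. The root mean square difference between log2 profiles over the 9 samples, each centred on its own mean, was smallest between Asns and Slc3a2 (0.09), then between Slc7a5 and Slc3a2 (0.10) and between Psat1 and Shmt2 (0.10). It was largest between Mthfd2 and Slc7a11 (0.55). Among 9139 genes brighter than the olfactory receptor limit, the profiles nearest to Asns were Pmm1 and Eif3c (0.036 and 0.040), those nearest to Mthfd2 were Cyp4f13 and Procr (0.075 and 0.076), and those nearest to Slc7a11 were Vnn1 and Tox2 (0.060 and 0.092). Nearest to Slc3a2 were Zfpl1 and Cth (0.069 and 0.072), to Slc7a5 Ncoa1 and Prpf40b (0.054 and 0.062), to Psat1 Rtca and Tcp1 (0.039 and 0.040) and to Shmt2 Rab8a and Aprt (0.047 and 0.055). For the mean profile of the 7 genes they were Ndufb2, H19, Map3k14, Poll and Nudt16 (0.042 to 0.053). The median difference to the 9139 genes was 0.195 (Shmt2) to 0.378 (Slc7a11) for single genes, and 0.191 for the mean profile. The nearest pairs among the 7 genes lay below these medians, while Mthfd2 and Slc7a11 lay further apart than the median of either (0.304 and 0.378). These are descriptions over 9 samples that share their arrays and scaling.

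Other genes of serine, glycine and one-carbon metabolism were mixed. Of 11 measured genes 2 fell and 0 rose on soft ECM, and 2 fell and 2 rose on stiff ECM, against normal. For these and the lists that follow, the shares of all probes called were 3.21% lower and 0.493% higher on soft ECM and 5.14% lower and 4.8% higher on stiff ECM, and among the brighter probes 5.53% and 0.609%, and 9.87% and 3.97%. Psph, the phosphatase of the last step of serine synthesis, was at 3147, 2783 and 3062 in the normal samples, 2012, 1989 and 2157 on soft ECM and 2410.5, 2211 and 2149 on stiff ECM, lower in all 6 gel samples. Its log2 differences from normal were -0.55 and -0.41 (limma adjusted p = 0.015 and 0.025). Aldh1l2, a mitochondrial formyl-folate dehydrogenase, fell by 0.76 and 0.74 (adjusted p = 0.044 and 0.030). On the stiff ECM Shmt1, the cytosolic counterpart of Shmt2, rose by 0.48 (adjusted p = 0.044), and Mthfd2l, a paralogue of Mthfd2, rose by 0.42 (adjusted p = 0.038). Mthfd2 and Mthfd2l thus differed in direction on stiff ECM, and for Mthfd2l the 3 stiff ECM samples (1376 to 1469.8) lay above the 3 normal samples (1003 to 1139).

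Of 15 other amino acid synthesis enzymes 2 fell on soft ECM and 4 on stiff ECM, and 0 rose. Aldh18a1, the first enzyme of proline synthesis, fell on both gels, by 0.68 and 0.49 (limma adjusted p = 0.017 and 0.032). Bcat1, a branched-chain aminotransferase, fell on soft ECM (-0.64, adjusted p = 0.017), with stiff minus normal at -0.13 (adjusted p = 0.461) and stiff minus soft at 0.51 (adjusted p = 0.051). Its probe was dim (202 to 332), and 92.4% of olfactory receptor probes were below it. On the stiff ECM the smallest p-values were those of Gpt2, the mitochondrial alanine aminotransferase (-0.67, adjusted p = 0.005), Cth, which makes cysteine from cystathionine (-0.56, adjusted p = 0.018), and Asl, argininosuccinate lyase (-0.46, adjusted p = 0.027).

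Of 24 other amino acid transporters 2 fell on soft ECM, and 4 fell and 1 rose on stiff ECM. The 1 that rose is a share near that of all probes called higher (4.8%). Slc7a2, a transporter of cationic amino acids, fell on both gels, by 0.80 and 0.71 (limma adjusted p = 0.014 and 0.013). Slc38a9, a lysosomal sensor of arginine, fell on soft ECM by 0.68 (adjusted p = 0.0499). Slc6a9, a glycine transporter, fell on stiff ECM by 0.55 (adjusted p = 0.013). Slc7a7, another light chain that pairs with the Slc3a2 protein, fell there by 1.01 (adjusted p = 0.019), from a dim probe at 43.5 to 110.8 that only 59.7% of olfactory receptor probes were below. Slc1a5, the glutamine transporter ASCT2, was at 2167 to 2898 in the normal samples, 1989 to 2258 on soft ECM and 1713 to 2281 on stiff ECM, and passed in no comparison (stiff minus normal -0.38, adjusted p = 0.097).

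The cytosolic aminoacyl-tRNA synthetases, which load amino acids onto tRNA, fell in 2 of 19 on soft ECM and 6 of 19 on stiff ECM, and 0 rose. Eprs1 and Cars1, for glutamate with proline and for cysteine, fell on both gels (-0.60 and -0.57 on soft ECM, limma adjusted p = 0.013 and 0.015, -0.50 and -0.36 on stiff ECM, adjusted p = 0.015 and 0.045). Gars1, for glycine, was at 12891 to 14926 in the normal samples and 8462 to 9606 on stiff ECM, and fell by 0.61 (adjusted p = 0.005). The medians of the 19 genes were -0.26 and -0.35.

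**Figure D3:**
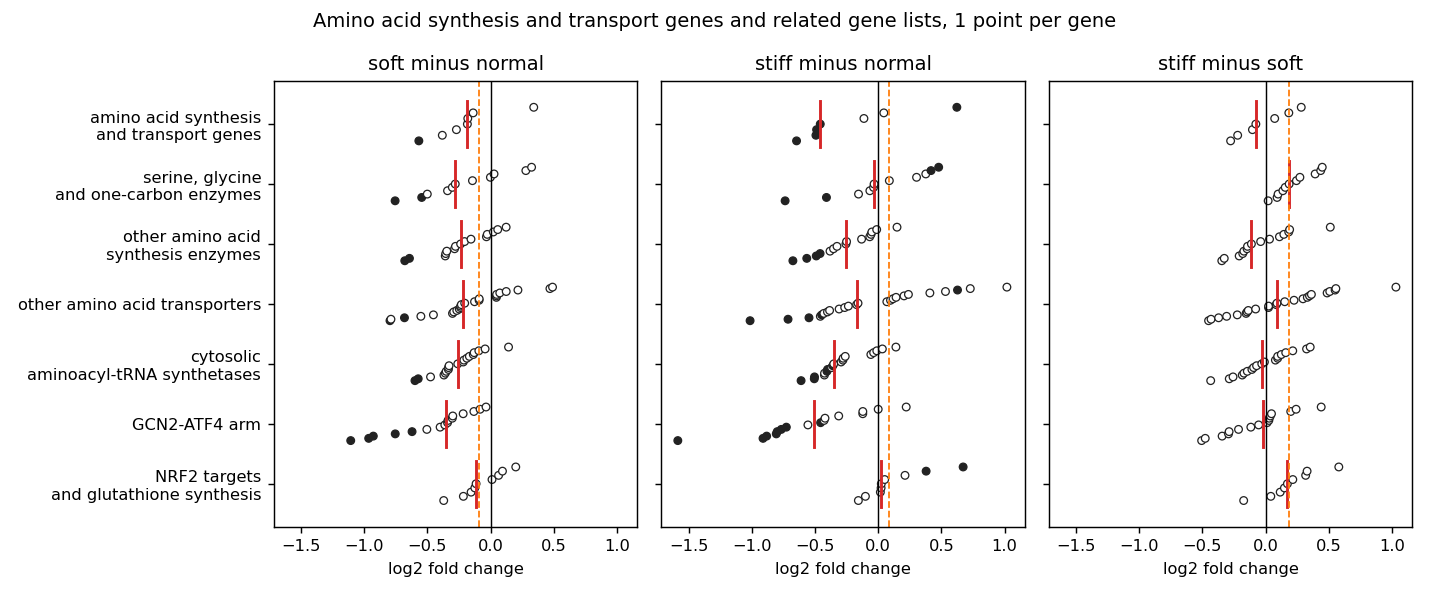
Log2 fold changes of the 7 genes and of 6 related gene lists in the 3 comparisons, with 1 point per gene (brightest probe). Filled points passed an adjusted p of 0.05, red bars are list medians and the dashed line is the median of all tested probes. Filled points stand in the 2 comparisons with normal and are absent between the gels, where 1.35% of all probes were called higher and 0.417% lower.

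In the GCN2-ATF4 arm, 5 of 16 genes fell on soft ECM and 8 of 16 on stiff ECM, and 0 rose. The list also holds Eif2ak3, the gene of the kinase PERK, so its name does not assign these falls to GCN2. The part of either kinase was not tested. The medians were -0.35 and -0.51, and all 16 log2 differences were negative on soft ECM and 14 on stiff ECM. Of all 24942 probes 15391 were negative on soft ECM and 10548 on stiff ECM. These counts include many dim probes. The median of the brighter probes was below 0 on both gels, at -0.14 on soft ECM and -0.11 on stiff ECM. Atf4 itself was at 46723, 42613 and 45190.5 in the normal samples, 30445.5, 37360 and 34454 on soft ECM and 35117, 33867 and 29361 on stiff ECM. All gel samples were below all normal samples, and it fell by 0.46 on stiff ECM (limma adjusted p = 0.024), with soft minus normal at -0.40 (adjusted p = 0.059). ATF4 is controlled mainly in translation, which arrays of RNA do not measure.

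Trib3, a pseudokinase that ATF4 induces, was at 6045, 5825 and 5637 in the normal samples, 2233, 3981 and 2234 on soft ECM and 1823, 1788 and 2254 on stiff ECM. It fell by 1.11 and 1.59 (limma adjusted p = 0.017 and 0.003), a larger fall than that of any of the 7 synthesis and transport genes, a difference that was not tested. Ddit3, the stress factor CHOP, fell by 0.62 and 0.91 (adjusted p = 0.021 and 0.003), and Sesn2, a leucine sensor, by 0.96 and 0.77 (adjusted p = 0.013 and 0.018). On the stiff ECM Fgf21, a stress hormone, fell by 0.81 (adjusted p = 0.011). Eif2ak4, which encodes GCN2, passed in no comparison and was at 1014 to 1135 in the normal samples, 858 to 978 on soft ECM and 1177 to 1327 on stiff ECM (stiff minus soft 0.44, adjusted p = 0.058). The C/EBP-ATF core stood in the windows of 4 of 15 genes of this arm and of 3 of 13 synthetases, against 3.91% of all genes. It was in 2 of 12 other synthesis enzymes and 1 of 18 other transporters. Of the serine, glycine and one-carbon genes 0 of 11 held it, and of the NRF2 and glutathione genes 0 of 8. The antioxidant core was in 4 of 8 NRF2 and glutathione genes and 5 of 18 other transporters, against 11.5% of all genes. For the synthetases it was 2 of 13, for this arm 1 of 15, and 0 in the other 2 lists.

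**Figure D4:**
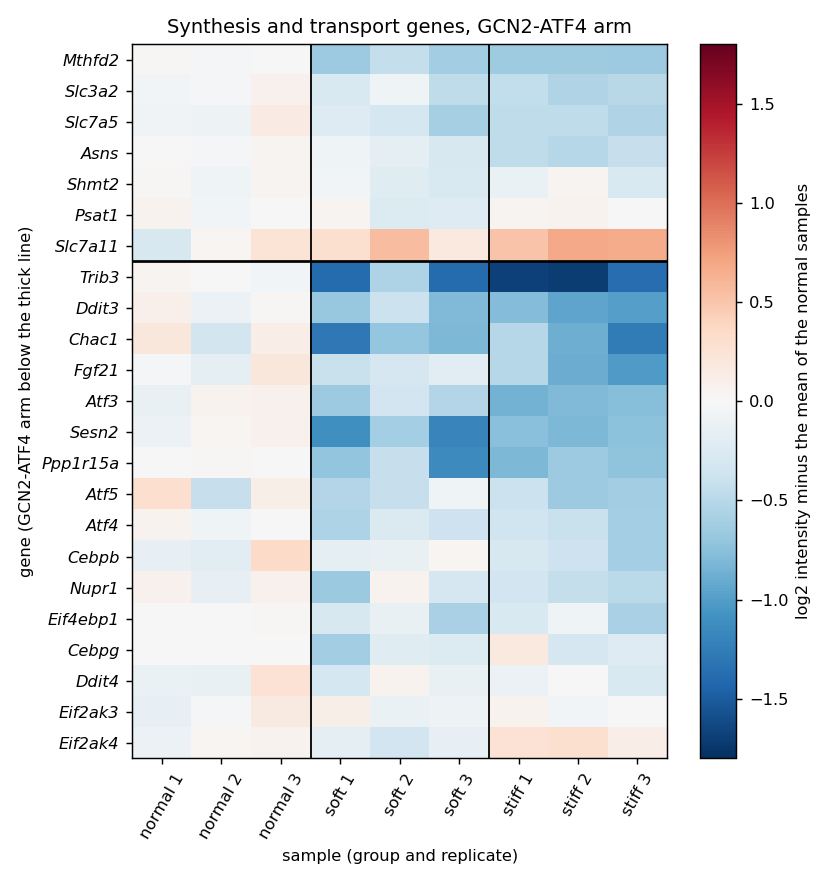
Log2 intensity of the 7 synthesis and transport genes and of the 16 genes of the GCN2-ATF4 arm in every sample, minus the mean of the 3 normal samples, with blue for lower and red for higher. The gel samples are blue for Mthfd2, Slc3a2, Slc7a5, Asns and for most of the arm, with Trib3 the darkest (stiff minus normal -1.59), and Slc7a11 is red.

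Slc7a11 is also a target of NRF2, the factor of the antioxidant response. Of 9 other NRF2 targets and glutathione genes 0 passed on soft ECM, and on stiff ECM 2 rose and 0 fell. Gclm, a subunit of the enzyme that starts glutathione synthesis, was at 955, 677 and 862 in the normal samples, 861, 957 and 822 on soft ECM and 1296, 1462 and 1191 on stiff ECM, above both other groups. It rose by 0.67 against normal (limma adjusted p = 0.019), and stiff minus soft was 0.58 (adjusted p = 0.062). Txnrd1, a thioredoxin reductase, rose by 0.38 (adjusted p = 0.046). Nfe2l2, which encodes NRF2, passed in no comparison (stiff minus normal 0.02, adjusted p = 0.906). The median of the 9 genes on stiff ECM was 0.02, where that of all probes was 0.09 and that of the brighter probes -0.11.

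In the 6 related lists together (11, 15, 24, 19, 16 and 9 measured genes) limma made 42 calls over the 3 comparisons, 0 of them between the gels. Between the gels 1.35% of all probes were called higher and 0.417% lower, and of the brighter probes 2.04% and 0.799%. The 0 calls in the lists are thus near the share of all probes. The count was 12 without normal replicate 2, 24 without soft ECM replicate 3, 16 without stiff ECM replicate 2 and 25 without stiff ECM replicate 3.

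Chondrocyte, fibroblast and muscle markers differed between groups. The summed intensity of 8 chondrocyte markers was 14913 to 17111 in the normal samples, 6753 to 8097 on soft ECM and 7529 to 8615 on stiff ECM, with 2 of 8 lower on the soft and 3 of 8 on stiff ECM by limma. Such sums weigh the brightest probes most. Here Col2a1 had means of 9673, 3612 and 3889 in the normal, soft ECM and stiff ECM groups, and Sox9 had 724, 661 and 656. Col2a1 fell by 1.42 and 1.31 (adjusted p = 0.001 in both). The sum of 8 skeletal muscle markers was 103906 to 125728 in the normal samples, 111949 to 119742 on soft ECM and 68312 to 83451 on stiff ECM, with 6 of 8 lower on stiff ECM than in normal, 3 of 8 lower than on soft ECM and 0 of 8 called between soft ECM and normal. For 6 fibroblast markers the sums were 148273 to 169660.0, 135683 to 143447 and 127936 to 131476, with 2 and 3 of 6 lower than normal on the soft and stiff ECM. The brightest of them were Dcn (means of 63013, 65307 and 59095) and Postn (51289, 41840 and 39304). For 5 of 6 macrophage markers the sums were 5159 to 6529, 4377 to 4833 and 4409 to 5125, with 0 of 5 called. Sums of 4 endothelial markers were 292 to 444 in the normal samples, 339 to 375 on soft ECM and 435 to 478 on stiff ECM, and of the 4 red cell markers only Alas2 was measured, at 7.23 to 57.0, 48.1 to 57.0 and 69.3 to 95.2, with 0 called in both lists. The part of these markers in the results on amino acid genes was not tested. In RNA of whole cultures fewer cells of a type and less RNA per cell cannot be told apart.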

How the data were processed

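RNA of 9 samples was measured with 1-colour arrays (Phalanx Mouse OneArray). By the methods' account, the authors labelled the RNA with Cy5, used a pair of arrays per sample, scaled them by the median in Rosetta Resolver and averaged the pair, with the version of that software not given in the sources used here. Deposited values are linear intensities of 26423 probes. The lowest was -8.27 and the highest 70058, and values below 0 point to an earlier subtraction of background. In each sample 100% of the values were whole multiples (within 0.02 steps) of a single step of 0.922 to 1.07. Averages of 2 separately scaled arrays would in general not show this, so whether the values are such averages is not settled. Scaling by a median assumes that most genes keep their level. The medians of the deposited samples still ranged from 124 to 179, and the shift of all probes given in the report remained. Why the medians differ after the stated scaling was not tested.

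Log2 intensities were fitted without further normalization in limma 3.58.1 (R 4.3.3) with 3 group means over all 9 samples and an intensity trend, for the 24942 probes above 0 in every sample. The other 1481 probes were left out. The Benjamini-Hochberg adjustment covered every tested probe of a comparison, with a threshold of 0.05. A gene was read from its brightest probe. Of the probes 21876 had 1 gene symbol in the platform annotation and 4547 had none. For the arrays the study names an error-weighted model of Rosetta Resolver with thresholds on fold and p, which was not run here because it needs error estimates. Student's test, named in the study's general statistics section, was run on the same values and is called the methods' t-test. The fit was tested on simulated data.

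The members and gene lists were chosen with earlier results of these data known. Genes named were all members, the called genes of each related list (at most the 3 with the smallest p per list and comparison), Atf4, Psph, Nfe2l2, Eif2ak4 and Slc1a5, the nearest profiles (2 per member and 5 for their mean), and cell type markers. Replicate numbers were not taken to pair samples, since deviations of same-numbered samples correlated at -0.22 to 0.133. The number of arrays limits the precision. Alternatives were quantile, median and loess scaling, 3 other filters, an offset, sample weights, no intensity trend, a replicate block, 2 groups only, the mean over probes, the methods' t-test and each sample left out. Figures were drawn with matplotlib 3.10.9 in Python 3.11.15.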

Additional observations from a re-analysis of the deposited data

How the results depend on the processing

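The comparison of the 2 gels gave 0 calls among the 7 genes in 12 of 13 alternatives and with each sample left out (0 to 0), and 2 with sample weights (Asns lower, Psat1 higher, adjusted p = 0.012 and 0.035), whose estimation stopped before it converged. The 1 call on the soft ECM became 0 with quantile, median and loess scaling, sample weights and the methods' t-test, and ranged from 0 to 1 with a sample left out. The 5 calls on the stiff ECM became 2 with no intensity trend and 1 with sample weights and with the methods' t-test, and ranged from 1 to 5 with a sample left out. The cause of these changes was not tested. Slc7a11 also lost its call with 2 groups only (adjusted p = 0.059) and Slc3a2 with loess scaling (0.057), while Mthfd2 on the stiff ECM kept its call in all 13 alternatives and with each of the 9 samples left out (0.002 to 0.046). With the replicate block the stiff ECM count was 4, since Slc7a5 lost its call (adjusted p = 0.059), and the counts on the soft ECM and between the gels stayed at 1 and 0; samples did not all correlate best with their own number. The 42 calls in the related lists became 43 to 52 in 4 alternatives and 12 to 37 with a sample left out.

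Uncalled differences changed sign for Psat1 with median scaling (stiff minus soft -0.064, stiff minus normal -0.11). For Shmt2, stiff minus soft became -0.18 with median scaling, -0.059 for the mean over probes and -0.0099 without stiff ECM replicate 2 (-0.0099 to 0.15 with a sample left out), and stiff minus normal became 0.031 with quantile and 0.029 with loess scaling. The median of all probes for stiff minus soft was 0.18 as deposited, 0.00 with quantile, -0.06 with median and 0.01 with loess scaling. All 7 genes were brighter than at least 99.3% of 459 olfactory receptor probes. The second probes of Shmt2 and Slc3a2 and several genes of the related lists, such as Slc7a7, Bcat1 and Atf3, were dimmer than the 95th percentile of those probes.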
